A study of Mus musculus with 8 samples.

Results

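The adhesion state of mouse embryonic stem cells was followed through 10 genes, namely the cadherins Cdh1, Cdh2 and Cdh3, the epithelial surface and junction genes Epcam, Cldn6 and Cldn7, the mesenchymal genes Vim and Fn1, and Snai1 and Zeb1, which encode repressors of epithelial genes. The genes were taken from a written list, chosen with earlier results of these data known. All 10 were found by symbol in the deposited expression tables, each with a single row among 17732 gene identifiers. RNA sequencing had been done on E14TG2a cells, an embryonic stem cell line of the 129/Ola strain, at passages 3 to 6. All samples shared the same culture, on gelatin without feeder cells, in a medium with serum, leukaemia inhibitory factor (LIF), CHIR99021 (an inhibitor of the kinase GSK3) and PD0325901 (an inhibitor of the kinase MEK). Unedited cells (WT) were compared with cells in which CRISPR/Cas9 had removed an enhancer, in 3 versions called E1-KO, E2-KO and E3-KO, with 2 biological duplicates in each of the 4 groups. The stated interest was how promoters and enhancers associate in the control of Sox2, a pluripotency transcription factor. The labels give neither the positions of the enhancers nor the number of clones behind each knockout. Edited cells with an intact enhancer were not analysed here, so loss of the enhancer cannot be told apart from differences in clone, culture or library batch.

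Cadherins are calcium-dependent proteins that hold neighbouring cells together and anchor the actin cytoskeleton through catenins. E-cadherin, the product of Cdh1, joins embryonic stem cells into compact colonies, as it joins epithelial cells into sheets. In an epithelial to mesenchymal transition, as at gastrulation, transcription factors such as SNAI1 and ZEB1 repress Cdh1 and other junction genes, N-cadherin (Cdh2) replaces E-cadherin, and vimentin and fibronectin accumulate. Both repressors are known to bind the hexamer CAGGTG, an E-box, which reads CACCTG on the opposite strand.

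The start sites of the junction genes and of Snai1 are shown because this hexamer occurs before them. RefSeq start sites in GRCm38.p6 were listed for 5 of the 10 genes (Epcam, Cldn6, Cldn7, Vim and Snai1, with Cldn7 listed at more than one start), and the 250 bases before each start were searched for CAGGTG and CACCTG on both strands. The starts of Cdh1, Cdh2, Cdh3, Fn1 and Zeb1 were not analysed here. The windows of Epcam (chr17:87635729-87635978) and Snai1 (chr2:167537945-167538194) overlap no annotated exon and are given whole, 5′ to 3′ on the plus strand, with each hexamer in capitals.
Epcam: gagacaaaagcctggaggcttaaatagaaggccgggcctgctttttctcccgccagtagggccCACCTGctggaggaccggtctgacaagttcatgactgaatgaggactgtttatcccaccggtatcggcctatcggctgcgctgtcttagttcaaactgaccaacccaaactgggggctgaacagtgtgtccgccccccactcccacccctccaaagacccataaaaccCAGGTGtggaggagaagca
Snai1: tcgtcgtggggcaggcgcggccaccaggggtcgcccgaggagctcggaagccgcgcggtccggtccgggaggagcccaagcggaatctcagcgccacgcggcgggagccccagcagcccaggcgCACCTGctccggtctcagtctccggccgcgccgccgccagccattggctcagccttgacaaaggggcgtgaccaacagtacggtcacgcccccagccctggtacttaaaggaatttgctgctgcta
The windows of Cldn6 and of the downstream start of Cldn7 overlap annotated exons, by 116 and 221 bases. For these, 26 bases around each hexamer are given, at chr17:23679262-23679287 for Cldn6 and at chr11:69965314-69965339 and chr11:69965354-69965379 for Cldn7.
Cldn6 site: gaaacgcacgCAGGTGgctatcgccg
Cldn7 upstream site: tcttcctcttCACCTGgacgaggagg
Cldn7 downstream site: acttccggttCAGGTGagtgtccctt
Epcam and the downstream start of Cldn7 each had 2 matches, at 187 to 182 and 19 to 14 bases before the start of Epcam and at 97 to 92 and 57 to 52 bases before that of Cldn7. Cldn6 had 1 match (93 to 88 bases before the start) and so did Snai1 (126 to 121 bases before). The upstream start of Cldn7 and the window of Vim had 0, and all 250 bases of the Vim window lie in annotated exons. Over all 32851 windows of this length in the table, 17.2% held at least 1 match and 2.06% held at least 2. These matches describe the letters of the windows, and binding was not measured.

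Values were read as FPKM, that is fragments corrected for the length of the transcript and the size of the library. The number of reads behind them was unknown. As a rough estimate, the most frequent ratio of low values put depth at 0.787 (E3-KO replicate 1, the lowest) to 1.01 (E3-KO replicate 2, the highest) times that of WT replicate 1. Only 3.41% to 6.81% of the low genes held that ratio. Rows at 0 gave another order, with 1860 in E3-KO replicate 1 against 2040 and 2102 in the WT samples. Between 11077 and 11264 genes reached 1 FPKM per sample. Sox2 was lower in all 3 knockouts, at 133.4 FPKM in WT against 59.2 in E1-KO cells, 105.5 in E2-KO cells and 94.3 in E3-KO cells on average (limma-trend adjusted p of 0.000168, 0.0314 and 0.0049; 0.0642 for E2-KO with median-ratio scaling). The embryonic stem cell markers (8 of 8 at 1 FPKM or more in every group) summed to 2530 to 2610 FPKM in WT, 2390 to 2460 in E1-KO, 2460 to 2650 in E2-KO and 2030 to 2300 in E3-KO. Tests below were made by limma-trend on log2(FPKM + 1) for the 11271 genes whose mean reached 1 FPKM, and a gene was called at a Benjamini-Hochberg adjusted p under 0.05 over all of them, two-sided. Log2 differences on this scale understate the change of low genes, and intervals are 95% intervals without adjustment for the number of genes. The p-values judge each difference against the spread between duplicates, pooled over the 4 groups. With the number of clones not given, it is unknown whether this spread includes differences between clones.

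Against WT, the repressor genes Snai1 and Zeb1 rose in every knockout while Cdh1, the gene they are best known to repress, did not pass the test in any. Fn1 and Cldn7 fell in every knockout, whereas Vim rose in E2-KO and E3-KO. Of the 10 genes 9 were tested, since Cdh2 averaged 0.708 FPKM. Among the 9, Snai1 reached the filter through its knockout samples. These genes and the lists below were chosen with earlier results of these data known. The shares of all genes are therefore given as background, and no list was tested as a set. In E1-KO 4 of the 9 were called, 2 higher and 2 lower, where 38% of all tested genes were called (15% higher, 23% lower). In E2-KO 7 were called, 3 higher and 4 lower, where 36.1% of all genes were called (14.2% higher, 22% lower). In E3-KO 6 were called, 3 higher and 3 lower, where 44.7% were called (13.9% higher, 30.8% lower). The 3 comparisons share the WT samples. The split of all genes depended on scaling: E3-KO had 1568 higher and 3470 lower, but 2358 and 2371 with median-ratio scaling and 2275 and 2457 after quantile normalization. E2-KO had 1596 and 2476, and 2004 and 1968 with median-ratio scaling. The median log2 difference of the 9 genes was -0.33 in E1-KO cells, -0.50 in E2-KO cells and -0.01 in E3-KO cells, beside -0.06, -0.08 and -0.15 over all tested genes. Another scaling moved the all-gene median of E3-KO to between -0.10 and 0.00, and the median of the 9 genes there to between -0.10 and 0.16.

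**Figure D1:**
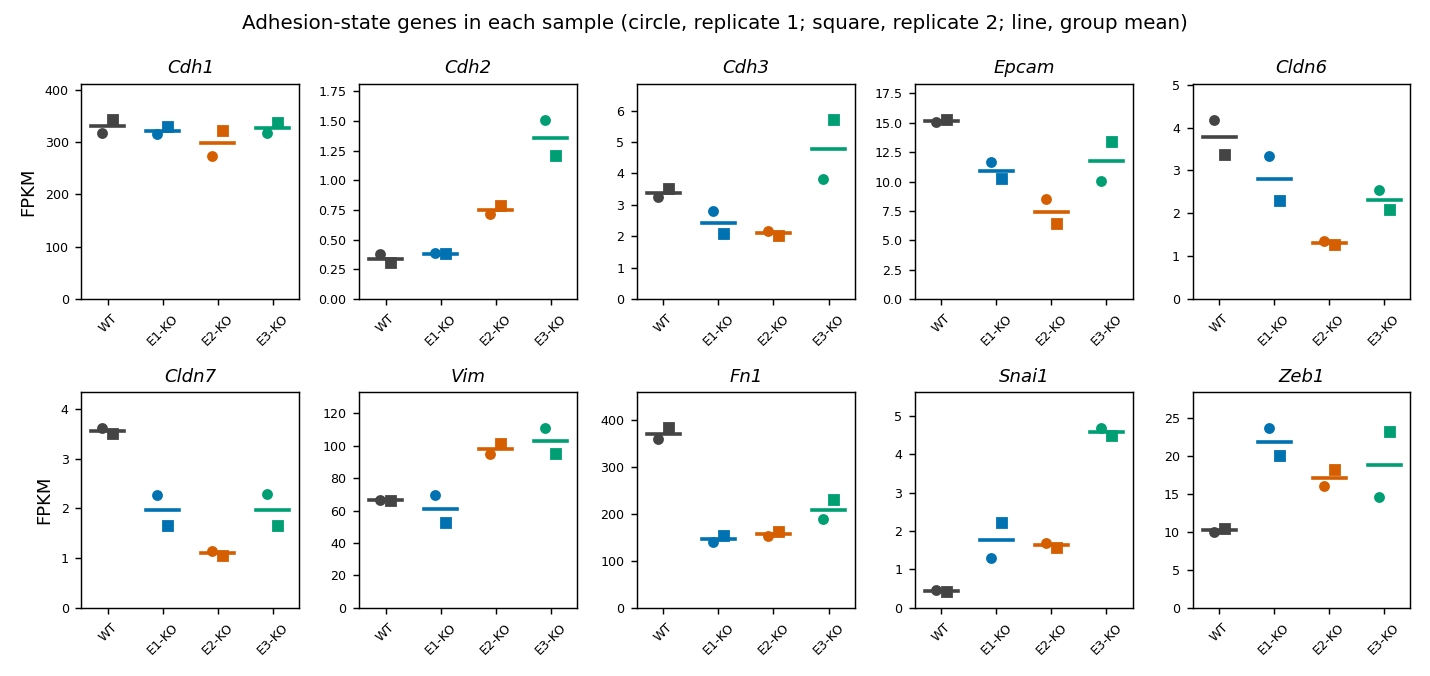
FPKM (vertical axis, from 0) of each of the 10 genes in the 8 samples, grouped as WT, E1-KO, E2-KO and E3-KO on the horizontal axis, with replicates 1 and 2 as circle and square and the group mean as a line. Cdh1 lies between 274 and 343 FPKM in all samples, Fn1 and Cldn7 are lower in every knockout sample than in WT, and Snai1 and Zeb1 are higher.

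Cdh1 (ENSMUSG00000000303, chromosome 8), the E-cadherin gene, was the second most abundant of the 10 transcripts in WT and the most abundant in each knockout sample. It stood at 318 and 343 FPKM in WT, 315 and 329 in the E1-KO samples, 274 and 322 in those of E2-KO and 317 and 337 in those of E3-KO. The groups overlapped, with E2-KO replicate 1 the lowest sample. The log2 difference from WT was -0.04 in E1-KO (95% interval -0.29 to 0.22, limma-trend adjusted p = 0.82), -0.15 in E2-KO (-0.41 to 0.11, adjusted p = 0.321) and -0.01 in E3-KO (-0.27 to 0.24, adjusted p = 0.927). After quantile normalization the E2-KO difference was -0.39 and passed (limma-trend adjusted p = 0.0436).

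Cdh2 (ENSMUSG00000024304, chromosome 18), the N-cadherin gene, was low in all samples and higher in E3-KO. Its levels were 0.381 and 0.302 FPKM in WT, 0.390 and 0.376 in the E1-KO samples, 0.715 and 0.782 in those of E2-KO and 1.51 and 1.21 in those of E3-KO. Both E2-KO and both E3-KO samples lay above all WT and E1-KO samples, and the ratio of group means to WT was 1.12 in E1-KO cells, 2.19 in E2-KO cells and 3.98 in E3-KO cells. The gene fell under the filter and was not tested in the main comparison. In a fit over all genes above 0 its log2 difference from WT was 0.81 in E3-KO (limma-trend adjusted p = 0.00203), 0.38 in E2-KO (adjusted p = 0.0304) and 0.04 in E1-KO (adjusted p = 0.796). Cdh1 was 210 and 279 times the level of Cdh2 in the E3-KO samples in FPKM, against 834 and 1140 times in WT.

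Cdh3 (ENSMUSG00000061048, chromosome 8), the P-cadherin gene, stood at 3.24 and 3.50 FPKM in WT, 2.80 and 2.06 in the E1-KO samples, 2.18 and 2.02 in those of E2-KO and 3.82 and 5.72 in those of E3-KO. All 4 samples of E1-KO and E2-KO lay below WT and both E3-KO samples above it. No difference from WT passed the test: the log2 differences were -0.36 in E1-KO (limma-trend adjusted p = 0.161), -0.50 in E2-KO (adjusted p = 0.0659) and 0.38 in E3-KO (adjusted p = 0.127). The E2-KO difference passed with the samples of that pair fitted alone (adjusted p = 0.0348) and without E3-KO replicate 1 or 2 (0.0339 and 0.0348), and the E3-KO difference passed without E3-KO replicate 1 (0.62, adjusted p = 0.0308). In direct comparisons, E3-KO had more Cdh3 than E1-KO, by 0.74 with a limma-trend adjusted p of 0.0194, and than E2-KO, by 0.88 with an adjusted p of 0.0156.

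Of 15 other classical and related cadherins 2 had a mean of at least 1 FPKM, Cdh4 and Cdh24. Cdh4, the R-cadherin gene, averaged 1.14 FPKM in WT, 1.6 in E1-KO cells, 2.47 in E2-KO cells and 3.59 in E3-KO cells. It rose in E2-KO (log2 difference 0.70, limma-trend adjusted p = 0.0228) and E3-KO (1.10, adjusted p = 0.00229), and the E1-KO difference was 0.27 (adjusted p = 0.3). Cdh24, named after its values were seen, did not pass in any knockout (log2 differences of 0.08, 0.30 and 0.02, adjusted p of 0.683, 0.153 and 0.927).

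The catenins that link cadherins to the cytoskeleton did not all follow Cdh1. Ctnna1 (alpha-catenin, which binds actin) had log2 differences of 0.10, -0.08 and 0.12 in E1-KO, E2-KO and E3-KO, none of which passed (limma-trend adjusted p of 0.432, 0.531 and 0.344), although the E3-KO difference was 0.29 and passed after median-ratio scaling (adjusted p = 0.0338). Ctnnb1 encodes beta-catenin, which binds the E-cadherin tail and also carries WNT signals, and CHIR99021 in the medium is known to stabilise that protein. Its transcript stood at 221 and 225 FPKM in WT, 112 and 124 in the E1-KO samples, 146 and 161 in those of E2-KO and 139 and 122 in those of E3-KO. Every knockout sample lay below WT, with log2 differences of -0.92 in E1-KO (limma-trend adjusted p = 0.00048), -0.54 in E2-KO (adjusted p = 0.00568) and -0.77 in E3-KO (adjusted p = 0.000759). Jup (plakoglobin, which can take the place of beta-catenin) had 69.7 FPKM in WT cells and fell to 47.3 in E1-KO cells, 54.2 in E2-KO cells and 46.8 in E3-KO cells (limma-trend adjusted p of 0.00717, 0.0434 and 0.00473). Ctnnd1 (p120-catenin, which keeps cadherins at the membrane) averaged 70.9 FPKM in WT, 59.4 in E1-KO cells, 56.3 in E2-KO cells and 54.1 in E3-KO cells, with adjusted p of 0.054, 0.0214 and 0.00834. Median-ratio scaling took away the calls of Ctnnd1 in E2-KO and E3-KO (adjusted p of 0.0508 and 0.0715) and that of Jup in E2-KO (0.0767); quantile normalization gave one for Ctnnd1 in E1-KO (0.0165), as did scaling without the 50 highest genes (0.0358).

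**Figure D2:**
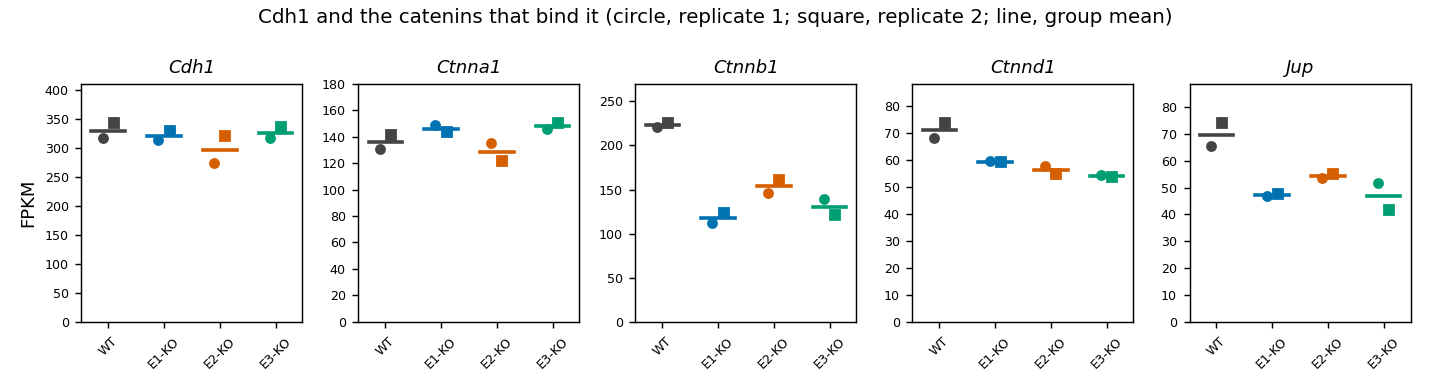
FPKM (vertical axis, from 0) of Cdh1 and of the catenins Ctnna1, Ctnnb1, Ctnnd1 and Jup in the 8 samples by group, with replicates 1 and 2 as circle and square and the group mean as a line. Cdh1 overlaps between groups, whereas Ctnnb1 lies at 221 and 225 FPKM in WT and at 112 to 161 in the knockout samples.

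Within the list of cadherin partners and adherens junction genes, 13 of 16 were tested. In E1-KO 1 rose and 4 fell, and in E2-KO and in E3-KO 1 rose and 5 fell in each, with medians of -0.09, -0.12 and -0.30 beside the all-gene medians given above. In the same order 15%, 14.2% and 13.9% of all tested genes were higher and 23%, 22% and 30.8% lower, and the 5 of 13 lower in E3-KO are near that share. Median-ratio scaling changed the counts to 2 higher and 2 lower in E2-KO and 2 higher and 3 lower in E3-KO. Afdn, the gene of the nectin-binding scaffold afadin, fell by 0.78, 0.86 and 0.88 on the log2 scale in E1-KO, E2-KO and E3-KO (limma-trend adjusted p of 0.000692, 0.000492 and 0.000272). Ctnnd2, a neural relative of Ctnnd1, fell in E1-KO (-0.86, adjusted p = 0.0032) and had differences that did not pass of -0.26 in E2-KO (adjusted p = 0.221) and 0.07 in E3-KO (adjusted p = 0.719).

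Epcam, Cldn6 and Cldn7 all fell in E2-KO, where each had its lowest values. Cldn7 fell in E1-KO and E3-KO as well, and Cldn6 in E3-KO. Epcam (ENSMUSG00000045394, chromosome 17) encodes an epithelial surface glycoprotein that is abundant on pluripotent cells. Its levels were 15.0 and 15.3 FPKM in WT, 11.7 and 10.2 in the E1-KO samples, 8.49 and 6.39 in those of E2-KO and 10.1 and 13.4 in those of E3-KO. All 6 knockout samples lay below WT, and both E2-KO samples below the rest. It fell by 0.95 on the log2 scale in E2-KO (standard error 0.166, limma-trend adjusted p = 0.00312). The differences of -0.44 in E1-KO (adjusted p = 0.0638) and -0.36 in E3-KO (adjusted p = 0.111) did not pass. The E1-KO difference did pass in a fit of that pair alone (0.0123) and without any 1 of E2-KO replicate 1 or 2 or E3-KO replicate 1 or 2 (0.0402 to 0.0451), and the E3-KO difference passed without E3-KO replicate 2 (-0.55, adjusted p = 0.044).

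Cldn6 (ENSMUSG00000023906, chromosome 17) encodes a tight junction claudin typical of pluripotent cells and early embryonic epithelium. It stood at 4.19 and 3.36 FPKM in WT, 3.32 and 2.30 in the E1-KO samples, 1.35 and 1.27 in those of E2-KO and 2.54 and 2.07 in those of E3-KO. Both E2-KO samples were below all others, and E1-KO and E3-KO overlapped each other. It fell by 1.04 in E2-KO (standard error 0.177, limma-trend adjusted p = 0.00275) and by 0.53 in E3-KO (adjusted p = 0.0375), and the E1-KO difference was -0.33 (adjusted p = 0.168). The E3-KO call did not hold under quantile normalization (-0.38, adjusted p = 0.113), median-ratio scaling (-0.40, 0.0981), scaling without the 50 highest genes (-0.49, 0.0525) or with all genes above 0 tested (0.0736). It was also lost without E3-KO replicate 2 (0.159), WT replicate 1 (0.207) or WT replicate 2 (0.065).

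Cldn7 (ENSMUSG00000018569, chromosome 11) encodes a claudin that binds EPCAM at the lateral membrane. Its levels were 3.61 and 3.50 FPKM in WT, 2.28 and 1.65 in the E1-KO samples, 1.15 and 1.05 in those of E2-KO and 2.30 and 1.64 in those of E3-KO. No knockout sample reached WT, and the E2-KO samples were the lowest. It fell by 1.12 in E2-KO (standard error 0.17, limma-trend adjusted p = 0.00166), by 0.63 in E1-KO (adjusted p = 0.0189) and by 0.63 in E3-KO (adjusted p = 0.016). The E1-KO call was lost without E1-KO replicate 2 (0.125), WT replicate 1 (0.0916) or WT replicate 2 (0.0843), and the E3-KO call without E3-KO replicate 2 (0.0901), WT replicate 1 (0.079) or WT replicate 2 (0.0708).

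Tight junction genes outside the 10, in a list also chosen with earlier results known, fell more often than they rose, as did all tested genes in the main comparison. Of 15 tested among 24 listed, 9 fell and 2 rose in E1-KO, 9 fell and 1 rose in E2-KO, and 7 fell and 2 rose in E3-KO. Of all genes 23%, 22% and 30.8% fell and 15%, 14.2% and 13.9% rose, and the counts that rose in E1-KO and E3-KO are near those shares. The medians were -0.50, -0.73 and -0.37, beside -0.06, -0.08 and -0.15 over all tested genes. Scaling moved the counts. In E3-KO 6 fell and 3 rose both after quantile normalization and with median-ratio scaling, with medians of -0.20 and -0.24. In E1-KO 7 and 8 fell under these scalings, and in E2-KO 8 and 9. Crb3, whose product sets apical polarity, averaged 4.02 FPKM in WT, 1.69 in E1-KO cells, 0.907 in E2-KO cells and 0.632 in E3-KO cells, with log2 differences of -0.91, -1.40 and -1.62 (limma-trend adjusted p of 0.00247, 0.000436 and 0.000134). Patj, of the same polarity complex, averaged 9.41 FPKM in WT and 3.74, 2.44 and 4.88 in the knockouts (adjusted p of 0.00109, 0.00032 and 0.00371). Tjp3, a junction scaffold gene, averaged 6.43 FPKM in WT and 3.04, 2.21 and 1.76 (adjusted p of 0.00204, 0.000554 and 0.000165). Cldn4, a further claudin chosen after its values were seen, had 38.3 FPKM in WT and fell to 14.2, 16.4 and 23.5 (adjusted p of 0.000564, 0.00111 and 0.00964), which made it more abundant than Cldn6 and Cldn7 in every group.

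Desmosome and keratin genes went in both directions. Of 8 tested among 14 listed, 2 rose and 2 fell in E1-KO, 1 rose and 4 fell in E2-KO, and 2 rose and 3 fell in E3-KO. Most of these counts are near the shares of all genes called (15% higher and 23% lower, 14.2% and 22%, and 13.9% and 30.8% in the same order). Their medians were -0.10, -0.35 and -0.13; quantile normalization turned those of E1-KO and E3-KO to 0.04 and 0.09, and median-ratio scaling that of E3-KO to 0.03. Dsp, the desmoplakin gene that ties desmosomes to intermediate filaments, stood at 19.3 and 23.1 FPKM in WT, 3.90 and 4.99 in the E1-KO samples, 4.57 and 4.89 in those of E2-KO and 9.14 and 9.10 in those of E3-KO. It fell by 2.03, 1.95 and 1.13 on the log2 scale (limma-trend adjusted p of 6.19e-05, 7.59e-05 and 0.000452). The keratin genes Krt18 and Krt19 fell in E2-KO, by 1.46 (adjusted p = 0.00121) and 2.11 (adjusted p = 0.000592). Krt18 also fell in E1-KO (-0.67, adjusted p = 0.032), a call that quantile normalization removed (0.0574). In E3-KO the differences were -0.06 for Krt18 and -0.21 for Krt19 (adjusted p of 0.848 and 0.538), and for Krt19 in E1-KO -0.29 (0.392). Krt8, the usual partner of Krt18 in simple epithelia, was named after its values were seen. It rose in E1-KO (0.64, limma-trend adjusted p = 0.025) and E3-KO (1.16, adjusted p = 0.00148), with 0.20 in E2-KO (0.43).

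Among epithelial regulators and membrane proteases, 12 of 16 were tested. In E1-KO 2 rose and 5 fell, in E2-KO 0 rose and 6 fell, and in E3-KO 3 rose and 4 fell, with medians of -0.29, -0.32 and -0.13, the last of which became 0.00 with median-ratio scaling. Beside them, 15%, 14.2% and 13.9% of all genes were higher and 23%, 22% and 30.8% lower, so that 4 of 12 lower in E3-KO is near the share of all genes. St14, the gene of the epithelial protease matriptase, averaged 57.3 FPKM in WT, 16.2 in E1-KO cells, 21.1 in E2-KO cells and 32.7 in E3-KO cells (limma-trend adjusted p of 6.73e-05, 0.000221 and 0.00166). Grhl2, a transcription factor gene that maintains epithelial junctions, averaged 3.44 FPKM in WT and 0.673, 1.17 and 1.18 in the knockouts (adjusted p of 0.00035, 0.00152 and 0.00107). Ap1m2, of the epithelial basolateral sorting adaptor, averaged 4.87 FPKM in WT and 1.26, 1.05 and 1.40 (adjusted p of 0.000723, 0.000526 and 0.000647). The 3 genes that rose in E3-KO, named after their values were seen, were Elf3 (0.57, limma-trend adjusted p = 0.00568), Esrp2 (0.46, adjusted p = 0.049) and Spint1 (0.36, adjusted p = 0.0319). Elf3 and Esrp2 did not pass in E1-KO or E2-KO. Spint1 also rose in E1-KO (0.35, adjusted p = 0.0405) and had a difference of 0.33 in E2-KO (0.0507). The other gene that rose in E1-KO was Grhl1, likewise named after its values were seen (0.56, limma-trend adjusted p = 0.0188). Elf3 encodes an epithelial transcription factor, Esrp2 an epithelial splicing regulator and Spint1 an inhibitor of matriptase.

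**Figure D3:**
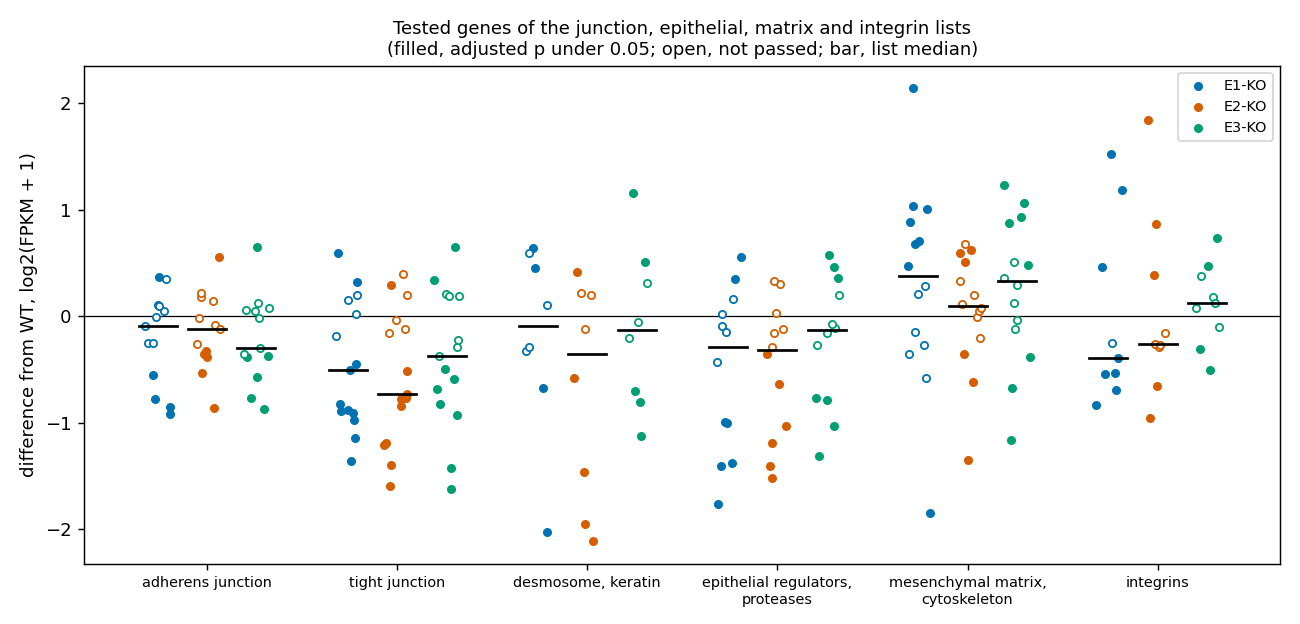
Log2 difference from WT on the log2(FPKM + 1) scale (vertical axis) for the tested genes of the adherens junction, tight junction, desmosome and keratin, epithelial regulator, mesenchymal matrix and integrin lists (horizontal axis), coloured by knockout, filled where the adjusted p was under 0.05, with a bar at the list median. The tight junction medians lie at -0.50, -0.73 and -0.37, and those of the mesenchymal matrix list at 0.38, 0.10 and 0.33.

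Fn1 fell in all 3 knockouts, whereas Vim rose in E2-KO and E3-KO and did not pass the test in E1-KO. Fn1 (ENSMUSG00000026193, chromosome 1) encodes fibronectin, a matrix protein that cells hold through integrins. It stood at 360 and 383 FPKM in WT, 141 and 154 in the E1-KO samples, 154 and 161 in those of E2-KO and 189 and 229 in those of E3-KO. Every knockout sample was below WT, and both E3-KO samples were above those of E1-KO and E2-KO. Fn1 averaged 371.6 ± 16.2 FPKM in WT (SD, n = 2), 2.52 times the E1-KO mean, 2.36 times the E2-KO mean and 1.78 times the E3-KO mean. The log2 differences were -1.33, -1.23 and -0.83 (standard error 0.116, limma-trend adjusted p of 0.000163, 0.000236 and 0.000762). In FPKM, Fn1 was 1.13 and 1.12 times Cdh1 in the WT samples and 0.448 to 0.68 times Cdh1 in the knockout samples. Exons of Fn1 overlap those of Apol7d on the opposite strand in the annotation, and the sources used here do not state whether counting used strand.

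Vim (ENSMUSG00000026728, chromosome 2), the gene of the intermediate filament vimentin, stood at 66.8 and 65.9 FPKM in WT, 69.8 and 52.5 in the E1-KO samples, 94.8 and 101 in those of E2-KO and 111 and 95.2 in those of E3-KO. The E1-KO samples lay on both sides of WT, and all E2-KO and E3-KO samples lay above WT and E1-KO. Vim rose by 0.55 in E2-KO (standard error 0.139, limma-trend adjusted p = 0.0142) and by 0.62 in E3-KO (adjusted p = 0.00651). In E1-KO the difference was -0.13 (95% interval -0.44 to 0.18, adjusted p = 0.488). The E2-KO call was lost without E2-KO replicate 2 (0.053), WT replicate 1 (0.0685) or WT replicate 2 (0.0817).

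**Figure D4:**
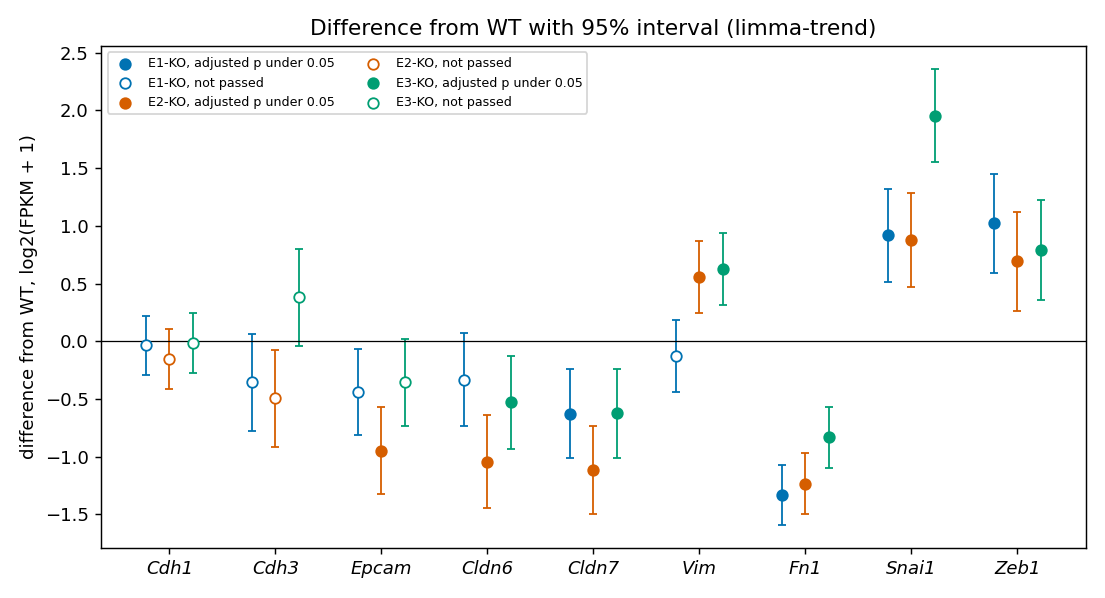
Log2 difference from WT on the log2(FPKM + 1) scale (vertical axis) of the 9 tested genes (horizontal axis) in E1-KO, E2-KO and E3-KO, with unadjusted 95% intervals from limma-trend and filled points where the adjusted p was under 0.05. Fn1 lies at -1.33, -1.23 and -0.83, Snai1 at 0.92, 0.87 and 1.96, and Cdh1 between -0.15 and -0.01.

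Other mesenchymal matrix and cytoskeleton genes were mixed. Of 14 tested among 25 listed, 7 rose and 1 fell in E1-KO, 3 rose and 3 fell in E2-KO, and 5 rose and 3 fell in E3-KO, with medians of 0.38, 0.10 and 0.33. These counts and medians include at least Acta2 and Thy1, which reached the filter on the mean through knockout samples. Of all genes 15%, 14.2% and 13.9% were higher and 23%, 22% and 30.8% lower, and the E2-KO counts are near those shares. Sparc, a collagen-binding matrix protein gene, had 91.1 FPKM in WT cells and rose to 149 in E1-KO cells, 141 in E2-KO cells and 215 in E3-KO cells (limma-trend adjusted p of 0.00167, 0.00322 and 0.000106). Acta2, the smooth muscle actin gene, stood at 0.122 and 0.127 FPKM in WT and at 6.19 and 2.42 in E1-KO, a log2 difference of 2.14 (adjusted p = 0.00106), and it passed the filter on the mean only through these E1-KO samples. Its differences of 0.68 in E2-KO (adjusted p = 0.111) and 0.13 in E3-KO (0.762) did not pass. Mmp2, the gelatinase gene, had 5.94 FPKM in WT cells and fell to 0.933 in E1-KO and 1.73 in E2-KO (adjusted p of 7.28e-05 and 0.000326). In E3-KO it averaged 4.34 (adjusted p = 0.0493), a call lost under quantile normalization (0.332), median-ratio scaling (0.181) and when the 50 highest genes were kept out of the scaling (0.0769).

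Integrins of the fibronectin and laminin receptors also went both ways. Of 9 tested among 15 listed, 3 rose and 5 fell in E1-KO, 3 rose and 2 fell in E2-KO, and 2 rose and 2 fell in E3-KO, with medians of -0.40, -0.26 and 0.13. Of all genes 15%, 14.2% and 13.9% were higher and 23%, 22% and 30.8% lower, and the 2 of 9 lower in E2-KO are at that share. Itga5, whose product pairs with that of Itgb1 as the classical fibronectin receptor, averaged 17.2 FPKM in WT and rose to 24.3 in E1-KO (limma-trend adjusted p = 0.00877) and 22.8 in E2-KO (0.0206), with 19.7 in E3-KO (0.186). Itgb1 averaged 66.5 FPKM in WT and 55.7, 54.4 and 53.5 in the knockouts (adjusted p of 0.0796, 0.0548 and 0.0344). These small differences depended on scaling, since Itga5 passed in E3-KO under quantile normalization (0.0163) and median-ratio scaling (0.024), and Itgb1 did not pass there under median-ratio scaling (0.264) or without the 50 highest genes (0.0534). Itgb1 did pass in E1-KO and E2-KO under quantile normalization (0.0325 and 0.0229) and without the 50 highest genes (0.0466 and 0.0189).

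Among the other alpha chains, Itga3, a laminin receptor gene, rose from 11.2 FPKM in WT to 26.9, 21.3 and 19.4 in E1-KO, E2-KO and E3-KO (limma-trend adjusted p of 0.000596, 0.00275 and 0.004). Itgav, of the vitronectin and fibronectin receptors, fell from 23.5 FPKM to 14.1 in E1-KO and 11.9 in E2-KO (adjusted p of 0.00978 and 0.00269) and was 25.7 in E3-KO (0.548). Itga9, whose identifier was repeated in the deposited tables and was read from the row that matched the position of the gene, averaged 0.826 FPKM in WT. It rose to 4.24 in E1-KO and 5.68 in E2-KO (adjusted p of 0.00106 and 0.000526) and was 1.38 in E3-KO (0.185). Like Snai1, it passed the filter on the mean through its knockout samples.

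Snai1 (ENSMUSG00000042821, chromosome 2), whose product represses Cdh1 and claudin genes, rose in all 3 knockouts from a level under 1 FPKM in WT. It stood at 0.453 and 0.422 FPKM in WT, 1.29 and 2.22 in the E1-KO samples, 1.70 and 1.57 in those of E2-KO and 4.67 and 4.48 in those of E3-KO. All knockout samples were above WT, and both E3-KO samples were above every other sample. The ratio of means to WT was 4.01 in E1-KO cells, 3.73 in E2-KO cells and 10.5 in E3-KO cells. The log2 differences were 0.92, 0.87 and 1.96 (standard error 0.179, limma-trend adjusted p of 0.00453, 0.00619 and 0.000116). Snai1 passed the filter on the mean through its knockout samples.

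Zeb1 (ENSMUSG00000024238, chromosome 18), the gene of a zinc finger repressor of epithelial genes, stood at 9.97 and 10.4 FPKM in WT, 23.6 and 20.0 in the E1-KO samples, 16.1 and 18.2 in those of E2-KO and 14.6 and 23.1 in those of E3-KO. All knockout samples were above WT, and both E1-KO samples were above those of E2-KO, with the E3-KO duplicates far apart and overlapping both. Zeb1 rose by 1.02 in E1-KO (standard error 0.19, limma-trend adjusted p = 0.00366), by 0.69 in E2-KO (adjusted p = 0.0209) and by 0.79 in E3-KO (adjusted p = 0.00924), which in ratios of means was 2.14, 1.68 and 1.85. The E2-KO call was lost with all genes above 0 tested (0.0553) and without E2-KO replicate 2 (0.0871), WT replicate 1 (0.0982) or WT replicate 2 (0.0841), and the E3-KO call without WT replicate 1 (0.0525). Exons of Zeb1 overlap those of Gm10125 on the opposite strand.

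Of 12 other mesenchymal transcription factor genes 3 reached the filter and were tested. Of these 0 rose in any knockout, while 1, 2 and 3 fell in E1-KO, E2-KO and E3-KO. Of all genes 15%, 14.2% and 13.9% rose and 23%, 22% and 30.8% fell, so that 0 of 3 higher is near the share of all genes. Gsc, a gastrulation factor gene, averaged 7.12 FPKM in WT and fell to 1.01, 2.29 and 1.92 (limma-trend adjusted p of 0.000517, 0.0041 and 0.00148). Tcf4, of the E-protein family, averaged 21.3 FPKM in WT and 19.4 in E1-KO (adjusted p = 0.491), and fell to 12.4 in E2-KO cells and 7.55 in E3-KO cells (0.0037 and 0.000138). Tcf3, another E-protein gene, fell in E3-KO (-0.51, adjusted p = 0.00957), a call lost with median-ratio scaling (0.0613), and its differences of -0.08 in E1-KO and -0.17 in E2-KO did not pass (0.646 and 0.31). Snai2, Twist1 and Zeb2 were picked from the factors under the filter after their values were seen, and the rest of those factors are not reported here. These 3 were not tested, and their low means were higher in the knockouts. They do not describe the direction of the untested factors as a set. Snai2 averaged 0.125 FPKM in WT, then 0.547, 0.620 and 0.861 in E1-KO, E2-KO and E3-KO. Twist1 averaged 0.65 FPKM in WT, then 0.998, 1.08 and 1.22. Zeb2 averaged 0.0332 FPKM in WT, then 0.343, 0.350 and 0.0780.

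The knockouts were next compared with each other. Between E2-KO and E1-KO 0 of the 9 genes were called by limma-trend, where 0.834% of all tested genes were (0.488% higher and 0.346% lower in E2-KO), and limma without the trend also called 0. At an unadjusted p under 0.05 there were 4 (Epcam, Cldn6, Cldn7 and Vim). The largest of these differences were -0.71 for Cldn6 (95% interval -1.11 to -0.31, limma-trend adjusted p = 0.0967) and 0.68 for Vim (0.37 to 1.00, adjusted p = 0.0677). Vim passed without E3-KO replicate 1 (0.0471) or 2 (0.047). Between E3-KO and E1-KO 4 of the 9 were called, all higher in E3-KO (Cdh3, Vim, Fn1 and Snai1), where 25.8% of all genes were called and 9.41% were higher. Between E3-KO and E2-KO 4 were called, again all higher in E3-KO (Cdh3, Epcam, Fn1 and Snai1), where 15.6% of all genes were called and 5.48% were higher. These all-gene shares also moved with scaling: median-ratio scaling turned 1061 higher and 1850 lower genes into 1450 and 1297 for the comparison with E1-KO, and 618 and 1136 into 878 and 818 for that with E2-KO. The medians of the 9 genes were -0.14, 0.09 and 0.49 in the order E2-KO against E1-KO, E3-KO against E1-KO and E3-KO against E2-KO, beside 0.00, -0.10 and -0.09 over all tested genes.

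Snai1 had a direct log2 difference of 1.04 between E3-KO and E1-KO (limma-trend adjusted p = 0.00357) and of 1.08 between E3-KO and E2-KO (adjusted p = 0.0057), higher in E3-KO in both. For Vim, E3-KO was above E1-KO by 0.75 (adjusted p = 0.00489), and its difference from E2-KO was 0.07 (95% interval -0.24 to 0.38, adjusted p = 0.768). Fn1 was higher in E3-KO than in E1-KO by 0.50 (adjusted p = 0.014) and than in E2-KO by 0.40 (0.0479). The latter was lost in a fit of that pair alone (0.178), without the trend (0.0671), with all genes above 0 (0.0788) and without any 1 library other than E3-KO replicate 1 (0.074 to 0.174). The former was lost without E1-KO replicate 1 (0.118), E1-KO replicate 2 (0.0541) or E3-KO replicate 2 (0.0517).

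Epcam was 0.59 higher in E3-KO than in E2-KO on the log2 scale (limma-trend adjusted p = 0.0429). This call was lost in the same 3 alternative fits (0.123, 0.0501 and 0.0889), with the replicate block (0.0637), and without any 1 library other than E2-KO replicate 1 and E3-KO replicate 1 (0.0655 to 0.192). For Cdh3, the call against E1-KO was lost with all genes above 0 (0.0503) and without E1-KO replicate 2 (0.128) or E3-KO replicate 2 (0.0926), and the call against E2-KO without E2-KO replicate 1 (0.0554), E2-KO replicate 2 (0.0549) or E3-KO replicate 2 (0.0744). Zeb1 did not differ between knockouts by a passed test, but the difference of E3-KO from E1-KO was -0.55 and passed without E3-KO replicate 2 (adjusted p = 0.0318).

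Across the 8 samples the genes most like Cdh1 in log2(FPKM + 1), of 8395 with a mean of at least 5 FPKM, were Crocc (Pearson r 0.943), Shisa5 (0.909) and Sh3rf1 (0.906). Those most like Vim were Tbkbp1 (0.953), Fmnl2 (0.95) and Nlrp9b (0.933). These values describe 8 samples that share groups, libraries and depth.

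Markers of other cell types were read beside these results. The fibroblast list (9 genes) summed to 3.28 to 3.39 FPKM in WT, 5.34 to 5.60 in E1-KO, 3.51 to 4.45 in E2-KO and 4.68 to 5.17 in E3-KO, and at most 2 of its genes averaged 1 FPKM in any group. Of this list Col3a1, Dcn, Lum and Twist2 were under 0.1 FPKM in every sample, and the values of Col1a1, Col1a2, Pdgfrb and Postn are not reported here. Thy1 stood at 0.840 and 0.695 FPKM in WT, 2.54 and 2.69 in the E1-KO samples, 1.23 and 1.82 in those of E2-KO and 2.54 and 2.85 in those of E3-KO. It passed the filter on the mean through its knockout samples. Of 2 tested genes of the list 1, Thy1, was called higher in each knockout and 0 lower. Beside them, 15%, 14.2% and 13.9% of all genes were higher and 23%, 22% and 30.8% lower. Scaling without the 50 highest genes left 0 called in E2-KO. The other tested gene did not pass in any knockout and was below WT in E2-KO and E3-KO. The medians of the 2 genes were 0.51, 0.07 and 0.32. The primitive endoderm list (7 of 9 with values) had a lower sum in the knockouts, with 29.8 to 31.1 FPKM in WT and 5.49 to 5.84 in E1-KO, 12.1 to 14.2 in E2-KO and 12.3 to 14.0 in E3-KO, and the laminin gene Lama1 made up most of it. Of its 2 tested genes Lama1 fell in every knockout (log2 differences of -2.36, -1.21 and -1.52, limma-trend adjusted p of 2.31e-05, 0.000315 and 8.29e-05), whereas Gata6 rose in E3-KO (0.79, adjusted p = 0.025) and did not pass in E1-KO or E2-KO (-0.64 and -0.49, adjusted p of 0.0619 and 0.137). The trophoblast list (8 genes) summed to 16.2 to 16.7, 12.5 to 16.4, 11.9 to 15.4 and 20.7 to 27.5 FPKM in the same order, and the neural progenitor list (5 of 8 with values) to 6.99 to 7.57, 11.5 to 13.3, 9.58 to 10 and 16.3 to 17.7. Their part in the results was not tested, and in these bulk samples fewer cells of a type and less RNA per cell cannot be told apart.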

How the data were processed

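RNA of 8 samples (4 groups of 2) had been made into total RNA libraries and sequenced as paired reads, per the labels' protocols. The authors deposited 1 table of identifiers and values per sample; the submitters' processing notes name Trimmomatic 0.36, TopHat2 2.0.12, Cufflinks 2.2.1 and the build mm9, with no role or order. No header states the unit, and the deposited values were read as FPKM on the ground of these notes and of their range. Each table had 18774 rows and 17812 identifiers. Of 660 repeated identifiers, 580 were kept by the row whose neighbours lie beside the gene on the chromosome, and 80 were left out. Symbols matched 17262 identifiers, and chromosomes and overlaps came from GENCODE M21 (GRCm38).

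The 11271 genes whose mean reached 1 FPKM were tested with limma-trend (limma 3.58.1, R 4.3.3) on log2(FPKM + 1), all 8 samples in 1 fit with 4 residual degrees of freedom. The fit was tested on simulated data, with the outcome not reported here. A difference that did not pass is not shown to be absent. Depth was unknown, and duplicate numbers limit the precision. The correlation of log2 values was 0.985 to 0.994 within and 0.941 to 0.982 between groups, across genes, which are not independent replicates. Same-numbered replicates did not deviate together (mean correlation 0.005, range -0.042 to 0.089 over 6 pairs of groups).

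The members and gene lists were chosen with earlier results of these data known. Besides the members and Sox2, the genes named were the 3 with the largest called change in each list, the 3 most correlated with Cdh1 and with Vim, and partners of a member. Genes of the cell type marker lists, and Cldn4, Cdh24, Krt8, Elf3, Esrp2, Spint1, Grhl1, Snai2, Twist1 and Zeb2, were named outside this rule, after their values were seen. Alternatives were other scalings, filters, pseudocount, thresholds and fits, the replicate block and leaving out each library. Promoter windows came from RefSeq (GRCm38.p6). Python 3.11.15 and matplotlib 3.10.9 drew the figures.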

Additional observations from a re-analysis of the deposited data

Results flagged for a closer look

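Changes against WT that differed between knockouts, by the limma-trend test of the difference itself, were found for 5 of the tested genes. Against E1-KO, E3-KO was higher on the log2 scale by 0.74 for Cdh3 (adjusted p = 0.0194), 0.75 for Vim (0.00489), 0.50 for Fn1 (0.014) and 1.04 for Snai1 (0.00357). Against E2-KO, E3-KO was higher by 0.88 for Cdh3 (adjusted p = 0.0156), 0.59 for Epcam (0.0429), 0.40 for Fn1 (0.0479) and 1.08 for Snai1 (0.0057). For Cdh3 the differences from WT had opposite signs, lower in E1-KO and E2-KO and higher in E3-KO, and none of the 3 passed alone. Leaving out E3-KO replicate 2 ended the calls of Cdh3, Fn1 and Epcam, at adjusted p of 0.0926 for Cdh3 and 0.0517 for Fn1 against E1-KO, and of 0.0744, 0.174 and 0.192 for Cdh3, Fn1 and Epcam against E2-KO. The calls of Snai1 and Vim passed under every alternative in which the gene was tested and without any 1 library.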

How the results depend on the processing

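No difference of the 9 tested genes changed sign with a call under any alternative; over all alternatives, 928 of the single-gene values kept their side of the threshold, 60 lost a call and 14 gained one. A filter at 5 FPKM left only 5 members to test. Of these 5, 2, 4 and 3 were called in E1-KO, E2-KO and E3-KO against WT, and 2 for E3-KO against E1-KO as well as against E2-KO. Of all 8396 genes tested there, 3400, 3202, 3903, 2133 and 1362 were called in the same order. Between E3-KO and E2-KO, fitting that pair alone or without the trend called 2 members, and an adjusted p under 0.01 called 1 (and 2 between E3-KO and E1-KO). Over all genes, that threshold called 2248, 2091 and 3058 genes in E1-KO, E2-KO and E3-KO against WT, 0 in E2-KO against E1-KO, and 1412 and 575 in E3-KO against E1-KO and E2-KO. Fitting the pair alone called 671 genes between E3-KO and E2-KO (1754 in the main comparison). The 94 genes between E2-KO and E1-KO became 1 with the pair alone, 1 with all genes above 0 and 58 under the filter at 5 FPKM; the cause was not tested. With the replicate number as a block they became 31, and the members called were 4, 7, 6, 0, 4 and 3 in the order of comparisons above, Epcam between E3-KO and E2-KO being the call lost.

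Leaving out 1 library at a time, where the lone sample left is assumed to vary like the other groups, gave 3 to 5 members in E1-KO, 5 to 8 in E2-KO and 3 to 7 in E3-KO against WT, 0 to 1 in E2-KO against E1-KO, and 2 to 4 and 1 to 4 in E3-KO against E1-KO and E2-KO. Over all genes the ranges were 2041 to 4674, 1871 to 4454, 2830 to 5340, 2 to 261, 1307 to 3277 and 975 to 1550 in that order. Depth was unknown, so no counting error could be given for the low genes Cdh2, Snai1, Cdh3, Cldn6 and Cldn7.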
